A study of Mus musculus with 8 samples.

Results

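A panel of 34 genes of epithelial junctions and cell polarity was followed in whole mouse pancreas, chosen by gene symbol and comprising 5 adherens junction and adhesion genes, 13 tight junction genes, 6 desmosome genes, 3 gap junction genes and 7 polarity and apical membrane genes. All 34 were found once among the 36432 gene IDs of each library, each with a usable estimate, and 32 passed the expression minimum that left 11860 genes for testing. Poly(A) RNA had been sequenced from 8 pancreases of mice aged 6 to 8 weeks, on a strain background given as mixed. The 4 controls had the genotype Ptf1a-Cre +/KI, a Cre recombinase knocked into 1 allele of Ptf1a, whose transcription factor acts in the progenitors of the pancreas and later in acinar cells. The other 4 mice had the genotype Ptf1a-Cre +/KI; Gata6 lox/lox, so both groups carried the Cre allele and only the second carried floxed alleles of the transcription factor gene Gata6. The labels place the expected deletion in the cells in which this Cre has been active and give no measure of its extent. Nothing in the labels says whether animals shared a litter or an RNA preparation. The comparison asks how the genes that hold pancreatic epithelial cells together differ when Gata6 has been targeted.

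Epithelial cells are joined by several kinds of contact. Tight junctions seal the space between cells near the apex, with claudins setting which ions pass, and adherens junctions below them link cadherins through catenins to actin. Desmosomes tie neighbouring cells through keratin filaments, and gap junctions, built of connexins, let small molecules and calcium signals pass from cell to cell. In the pancreas the acinar cells, which secrete digestive enzymes, are coupled by gap junctions and secrete at an apical surface set up by the Par, Crumbs and Lethal giant larvae proteins.

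Levels are given as rescaled FPKM, fragments per kilobase on the scale of the deposited tables after division by 100000, because the deposited values sum to between 2.34e+10 and 1.86e+11 per library and are not on a per-million scale. They are per length, so levels of different genes can be set side by side. Fragments implied by the deposited intervals totalled 5326087 to 8958089 per library. Gata6 itself was 2.76, 2.12, 2.62 and 2.45 rescaled FPKM in controls 1 to 4 and 4.81, 5.12, 4.90 and 4.12 in the 4 libraries labelled Gata6 lox/lox, so its gene-level value was higher, not lower (log2 fold change 0.72, limma adjusted p = 0.0443). A gene-level value cannot resolve the floxed part, and these 4 are therefore called labelled libraries 1 to 4. The tissue label was borne out by acinar markers (16 of 16 above 0 in every library), but their summed level ran from 338582 to 475432 in the controls and was 2335, 174215, 30460 and 220208 in labelled libraries 1 to 4. Labelled libraries 1 and 3 thus stood apart from 2 and 4 in acinar content. Control 1 and labelled libraries 1, 3 and 4 have titles starting with BKD. Controls 2, 3 and 4 have titles starting with ASK, and labelled library 2 a title starting with BSH. The title prefix was thus partly confounded with the groups, and ASK and BSH each occur in 1 group only. In whole tissue, fewer cells of a type and less RNA per cell cannot be told apart.

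Adherens genes and part of the claudins had higher means in the labelled libraries, while the connexins of acinar cells, Cldn10 and Llgl2 had lower means. In 10 of the 32 tested members the groups did not overlap. Of these, Epcam, Ctnna1, Ctnnb1, Ctnnd1, Cldn4, Cldn7, Prkci and Ezr lay above every control, and Gjb1 and Llgl2 below every control. Over all genes tested the groups did not overlap in 18.5%, with 10.9% higher and 7.62% lower, so 31.3% of the tested members stood against 18.5% of all genes. No member passed a Benjamini-Hochberg adjusted p under 0.05 in limma (0 of 32, against 0.413% of all genes tested), and the lowest adjusted p was 0.103, that of Ezr. At an unadjusted p under 0.05 there were 9 members higher and 4 lower, or 40.6%, against 30.1% of all genes, of which 17.9% higher and 12.2% lower. The median log2 fold change was 0.56 for the adherens members, 0.29 for the tight junction members, -0.66 for the gap junction members, 0.01 for the polarity members and within 0.01 of 0 for the desmosome members, against 0.10 for all genes tested.

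**Figure D1:**
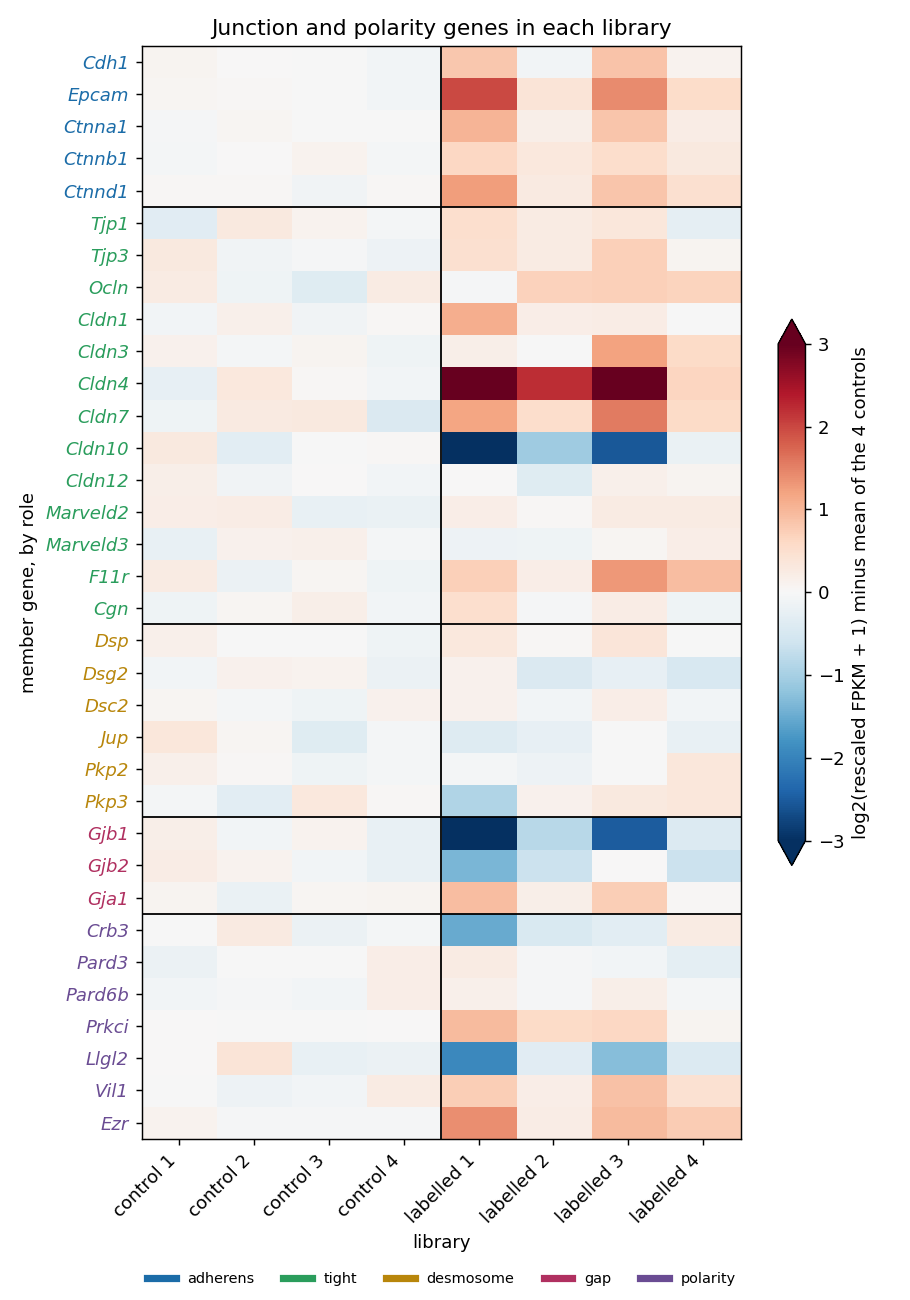
Each row is 1 of the 34 member genes and each column 1 library; colour is log2(rescaled FPKM + 1) minus the mean of the 4 controls, with the colour scale ending at -3 and 3. Labelled libraries 1 and 3 carry the strongest colours, blue for Gjb1, Cldn10 and Llgl2 and red for Cldn4 and Epcam, while the desmosome rows stay pale.

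The labelled libraries were spread more widely than the controls. The median adherens deviation from the control mean was 1.03, 0.26, 0.83 and 0.30 on the log2 scale in labelled libraries 1 to 4, while the controls ran from -0.06 to 0.03. For the gap junction members it was -1.38, -0.63, 0.02 and -0.42, while the controls ran from -0.22 to 0.19. With only labelled libraries 2 and 4 kept, 13 of 32 members did not overlap, 9 higher and 4 lower, against 23.2% of all genes, 12.7% higher and 10.5% lower. Without labelled library 4 the number was also 13 of 32, 9 higher and 4 lower, but against 38.1% of all genes, 20.2% higher and 17.9% lower. The members were then near the share of all genes. In that subset the limma fit called 6 members, Epcam, Cldn4, Cldn7, Cldn10, Gjb1 and Prkci, but it then called 21.6% of all genes.

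**Figure D2:**
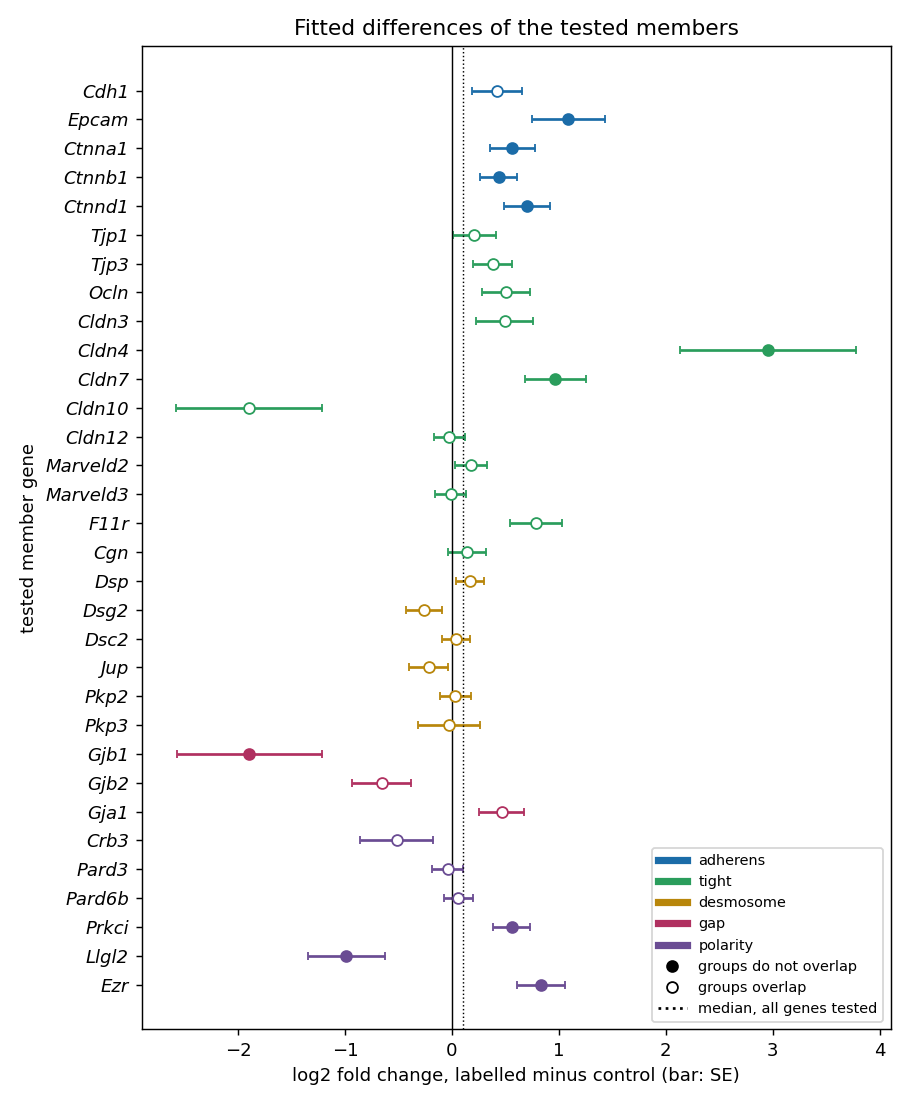
Points are fitted log2 fold changes, labelled minus control, of the 32 tested members with bars of 1 SE; filled points mark members whose groups do not overlap, and the dotted line is the median of all genes tested, 0.10. Cldn4 lies farthest right at 2.96, and Cldn10 and Gjb1 farthest left at -1.90 and -1.89.

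Among the adherens genes, Epcam, a homophilic adhesion protein of simple epithelia, differed most. Epcam was 7.15, 7.03, 6.78 and 6.45 rescaled FPKM in controls 1 to 4 and 30.2, 9.23, 20.1 and 10.6 in labelled libraries 1 to 4. Its lowest labelled library was above its highest control, and libraries 1 and 3 were higher than 2 and 4. The mean went from 6.85 ± 0.31 to 17.5 ± 9.72 (SD, n = 4), a log2 fold change of 1.09 (SE 0.34, limma adjusted p = 0.113). Epcam lies on mm9 chromosome 17 from 88035319 to 88050446, and 111 to 163 implied fragments stood behind each control value and 215 to 2165 behind each labelled value. Cdh1, which encodes E-cadherin, the transmembrane adhesion protein of these junctions, was 14.2, 13.3, 13.01 and 12.5 in the controls and 23.8, 12.5, 24.7 and 14.4 in the labelled libraries. Here the groups overlapped, since labelled library 2 was just below the lowest control (log2 fold change 0.42, SE 0.24, limma adjusted p = 0.243).

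The 3 catenins listed among the adherens members lay above every control in every labelled library. Plakoglobin (Jup), listed with the desmosome genes, did not, with a log2 fold change of -0.22 and overlapping groups. Ctnnb1, the beta-catenin that binds the cadherin tail and also acts in Wnt signalling, had the highest mean level of all 34 members in both groups. It was 40.3, 42.2, 45.2 and 40.1 in the controls and 64.9, 52.3, 60.5 and 51.7 in the labelled libraries (log2 fold change 0.44, SE 0.17, limma adjusted p = 0.140). Ctnna1, the alpha-catenin that couples the complex to actin, was 7.64, 8.26, 7.79 and 7.82 in the controls and 17.1, 8.94, 14.8 and 9.41 in the labelled libraries. Labelled libraries 2 and 4 exceeded the highest control only narrowly, and the log2 fold change was 0.56 (SE 0.21, limma adjusted p = 0.135). Ctnnd1, the delta-catenin that stabilises cadherins at the membrane, was 8.98, 8.997, 8.07 and 9.01 in the controls and 22.3, 10.7, 16.3 and 12.5 in the labelled libraries (log2 fold change 0.70, SE 0.22, limma adjusted p = 0.113). Libraries 1 and 3 were again the highest for both.

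**Figure D3:**
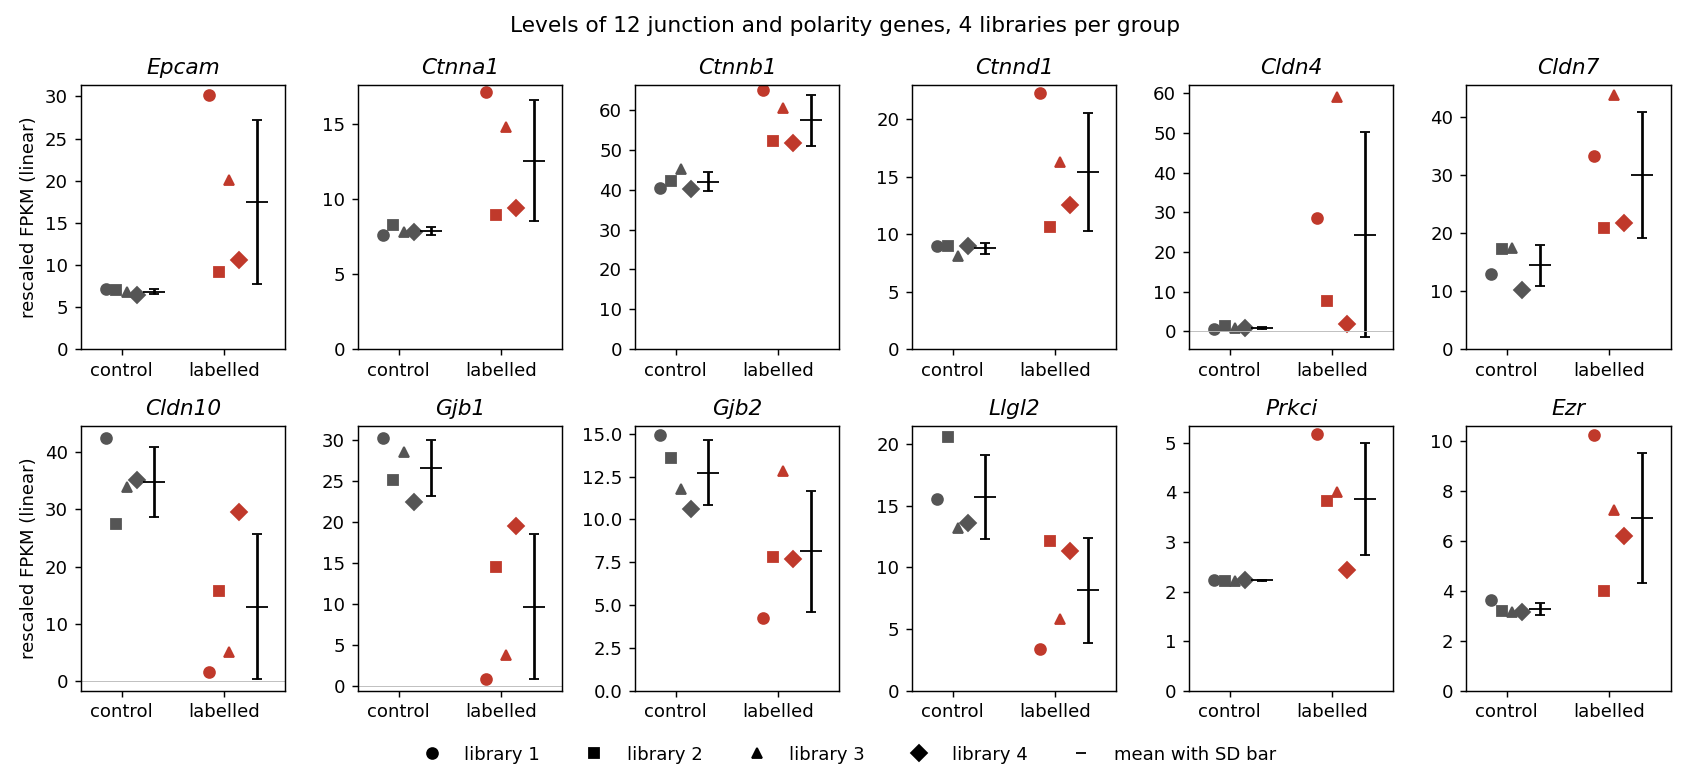
Rescaled FPKM of 12 members on linear axes, with 1 symbol per library number and the mean with its SD beside each group of 4 libraries. The circles and triangles of labelled libraries 1 and 3 lie farthest from the controls in most panels, and only in Cldn10 and Gjb2 among these 12 do the groups overlap.

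Claudins form the strands of tight junctions, and here their differences had opposite signs. Cldn4, a claudin of many ducts and barrier epithelia, showed the largest difference of all tested members. It was 0.581, 1.34, 0.919 and 0.765 rescaled FPKM in controls 1 to 4 and 28.5, 7.79, 59.1 and 1.93 in labelled libraries 1 to 4. Labelled library 4 was close to control 2, and labelled library 3 was about as high as the highest catenin. The mean went from 0.901 ± 0.32 to 24.3 ± 25.8 (SD, n = 4), a log2 fold change of 2.96 (SE 0.82, limma adjusted p = 0.104). Behind those values stood 7, 19, 11 and 13 implied fragments in the controls and 1432, 137, 2952 and 29 in the labelled libraries.

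Cldn10, which has alternative first exons that give pores of opposite charge preference, was the highest claudin in every control and went the other way. Its level was 42.4, 27.4, 33.95 and 35.04 in the controls and 1.58, 15.8, 5.07 and 29.6 in the labelled libraries. Labelled library 4 reached into the control range, and the other 3 were below it. The log2 fold change was -1.90 (SE 0.69, limma adjusted p = 0.129), and 22.7 to 113.2 implied fragments stood behind each labelled value. Among the other abundant claudins, Cldn7, a partner of Epcam in epithelia, was 12.98, 17.3, 17.5 and 10.2 in the controls and 33.3, 21.0, 43.9 and 21.8 in the labelled libraries. All 4 labelled libraries exceeded the controls (log2 fold change 0.97, SE 0.29, limma adjusted p = 0.109). Cldn3, a sealing claudin, was 19.9, 17.5, 19.3 and 16.5 in the controls and 20.9, 18.2, 43.6 and 27.7 in the labelled libraries. It overlapped through labelled library 2 (log2 fold change 0.49, limma adjusted p = 0.231).

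The windows from 250 bases before to 50 after the RefSeq starts of these 2 genes, on build GRCm38.p6, are shown because they are the claudins with the largest opposite differences. Capitals mark the motifs searched on both strands, which were the GATA core (AGATAA, its variant AGATAG, and with another first base TGATAA, its variant TGATAG) and a pair of E-boxes (CAGCTG, and also CATATG). No searched motif overlaps another in the windows printed. The GATA core is in 29.8% of all 32851 such windows, CAGCTG in 16.3% and CATATG in 3.91%.
Cldn4, chr5:134946885-134947184, minus strand: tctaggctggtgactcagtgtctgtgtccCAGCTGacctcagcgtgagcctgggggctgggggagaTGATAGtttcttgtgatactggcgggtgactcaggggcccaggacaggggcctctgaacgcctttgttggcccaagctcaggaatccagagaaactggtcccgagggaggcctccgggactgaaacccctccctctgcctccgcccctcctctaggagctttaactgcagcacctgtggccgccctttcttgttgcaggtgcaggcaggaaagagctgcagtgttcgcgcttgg
Cldn10 start 1, chr14:118787621-118787920, plus strand: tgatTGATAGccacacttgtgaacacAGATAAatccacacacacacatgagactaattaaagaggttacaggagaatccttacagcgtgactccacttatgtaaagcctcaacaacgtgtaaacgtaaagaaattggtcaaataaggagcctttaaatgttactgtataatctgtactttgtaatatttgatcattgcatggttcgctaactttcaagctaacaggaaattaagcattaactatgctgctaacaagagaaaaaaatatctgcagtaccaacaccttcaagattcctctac
Cldn10 start 2, chr14:118854700-118854999, plus strand: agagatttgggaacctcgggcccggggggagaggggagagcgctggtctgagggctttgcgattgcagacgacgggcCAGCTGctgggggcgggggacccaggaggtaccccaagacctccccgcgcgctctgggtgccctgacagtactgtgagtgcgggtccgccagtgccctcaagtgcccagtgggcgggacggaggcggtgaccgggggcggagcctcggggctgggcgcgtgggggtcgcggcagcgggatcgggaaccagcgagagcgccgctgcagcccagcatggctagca
The Cldn4 window holds 1 GATA core and 1 CAGCTG, the first Cldn10 window 2 GATA cores, and the second 1 CAGCTG. Windows were found for 26 of the 34 members, 40 in all, and 9 of the 40 held a GATA core. The files give 1 value per gene, so the 2 Cldn10 starts cannot be measured apart.

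Shares within a library do not depend on how libraries are scaled to each other. Of the summed level of 24 claudin genes, Cldn10 made up 45.6%, 31.7%, 36.6% and 42.2% in controls 1 to 4 and 1.37%, 18.3%, 2.74% and 29.3% in labelled libraries 1 to 4. Every labelled library was below every control, which was not so for the level itself. Cldn4 made up 0.624%, 1.55%, 0.992% and 0.921% in the controls and 24.7%, 9.03%, 31.9% and 1.92% in the labelled libraries, all higher. The share of Cldn7 was 12.3% to 20.1% among controls and 21.5% to 28.9% among labelled libraries, and that of Cldn3 was 19.9% to 21.4% and 18.2% to 27.5%. The summed claudin level was 83.1 to 93.1 rescaled FPKM in the controls and 115, 86.3, 185 and 101 in the labelled libraries. Without labelled libraries 1 and 3 the mean difference in share was -15.2 percentage points for Cldn10 and 4.4 for Cldn4, against -26.1 and 15.9 with all 4.

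**Figure D4:**
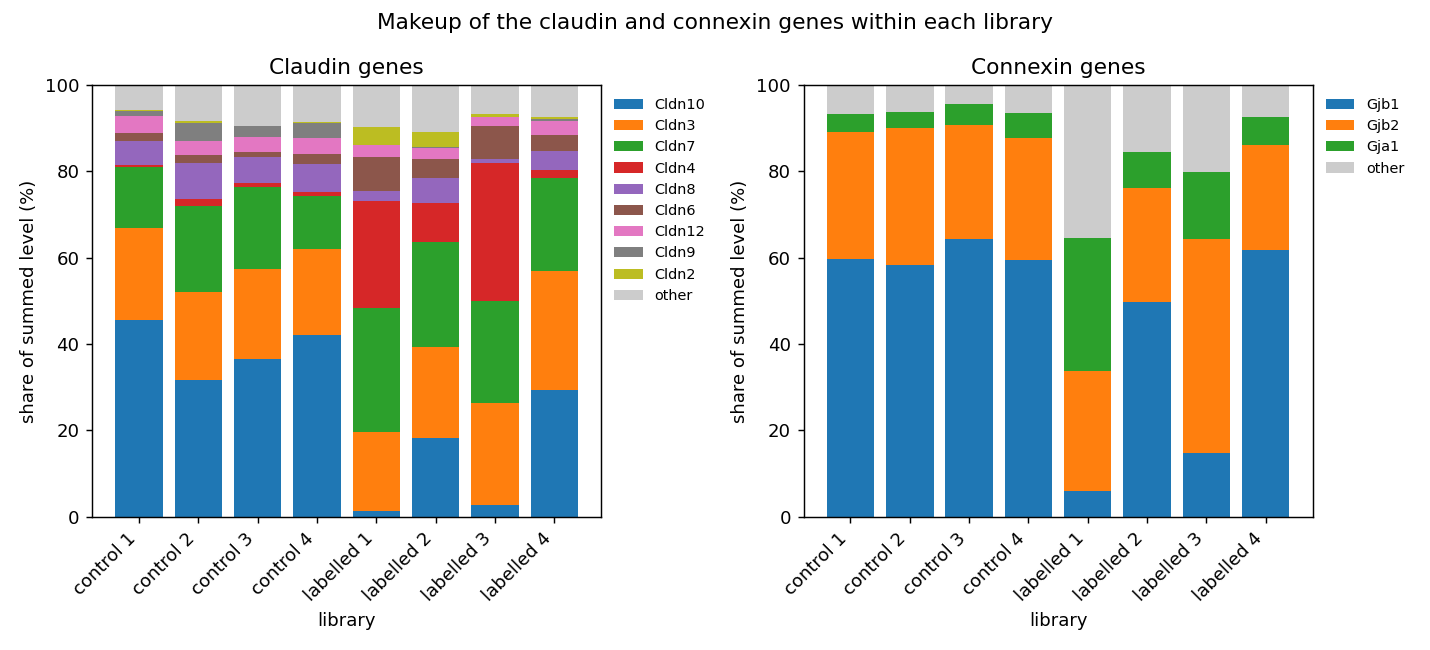
Stacked bars give the percentage of the summed rescaled FPKM of 24 claudin genes (left) and 20 connexin genes (right) taken by each gene in each of the 8 libraries. Cldn10 shrinks from 31.7% or more in the controls to 1.37% in labelled library 1, and Gjb1 from 58.4% or more to 6.03%, while in labelled library 4 Gjb1 holds 61.7%.

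Acinar markers had lower means in the labelled libraries, while duct markers went both ways. Krt19, a keratin of ducts, was 9.57, 8.55, 5.78 and 7.92 in the controls and 25.7, 13.6, 34.5 and 9.26 in the labelled libraries, and Krt7, another duct keratin, 0.887 to 1.90 and 12.9, 2.68, 7.22 and 0.842. Of 12 duct markers, 7 had a higher mean in the labelled libraries and none was at 0. Without overlap Slc4a4, which was below the expression minimum, was higher and Muc1 was lower. The summed level of the 12 ran from 182.7 to 235.7 in control tissue and from 138.4 to 254.1 in labelled tissue, and Muc1 and Spp1 made up most of it. All 16 acinar markers had a lower mean in the labelled libraries. Islet and adipocyte markers had higher means as well. All 12 islet markers did, with none at 0, and their sum was 562.4 to 1486 in control tissue and 6029, 1503, 950.8 and 768.3 in labelled libraries 1 to 4. All 10 adipocyte markers did, with none at 0 and sums of 91.5 to 249.8 and 413.2 to 542.9. The part of any of these cell types in the adherens and claudin differences was not tested.

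Among the remaining tight junction members, F11r and Ocln had the largest fold changes. F11r, which encodes the junctional adhesion molecule JAM-A, was 15.1, 11.1, 13.3 and 11.6 in the controls and 21.5, 14.6, 32.8 and 25.0 in the labelled libraries. Only labelled library 2 lay within the control range (log2 fold change 0.79, SE 0.24, limma adjusted p = 0.113). Ocln, which encodes occludin, was 3.48 to 5.92 in the controls and 4.62, 8.33, 8.55 and 8.13 in the labelled libraries, so that labelled library 1 alone stayed within the control range (log2 fold change 0.51, limma adjusted p = 0.169). The scaffold genes Tjp1 and Tjp3, of the zonula occludens proteins, had log2 fold changes of 0.21 and 0.38, and Cgn, for the cytoplasmic plaque protein cingulin, 0.14. Marveld2, whose product tricellulin seals corners where several cells meet, had 0.18, its relative Marveld3 -0.01 and Cldn12 -0.03. Control and labelled values of these 6 genes overlapped, and their levels stayed between 1.05 and 5.14 rescaled FPKM in every library. Cldn1 was below the expression minimum, at 0.0475, 0.249, 0.0413 and 0.145 in the controls and 1.36, 0.287, 0.307 and 0.1003 in the labelled libraries. From 1 to 6 implied fragments stood behind each control value of Cldn1 and 140, 10, 28 and 3 behind the labelled values.

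Desmosome genes showed no clear difference in either direction. None of the 6 had groups without overlap or an unadjusted p under 0.05 in limma, and their adjusted p ran from 0.291 to 0.942. Jup, for plakoglobin, the armadillo protein shared by desmosomes and adherens junctions, had the highest level and was 20.4, 16.7, 12.2 and 15.3 in the controls and 11.96, 13.2, 15.8 and 13.4 in the labelled libraries (log2 fold change -0.22, SE 0.18). Dsg2, the desmosomal cadherin desmoglein of simple epithelia, was 6.80, 8.01, 7.93 and 6.34 in the controls and 7.99, 5.10, 5.90 and 4.86 in the labelled libraries (log2 fold change -0.26, SE 0.17). Labelled libraries 2, 3 and 4 lay below the controls and labelled library 1 among them. Both fold changes turned positive under equal-sum scaling (0.82 for Jup and 0.72 for Dsg2) and under implied totals. Pkp3, a plakophilin that links desmosomal cadherins to the plaque, was 7.20, 5.82, 9.60 and 7.69 in the controls and 3.54, 8.26, 9.45 and 9.72 in the labelled libraries, with labelled library 1 the lowest of all 8. Dsp, for desmoplakin, which anchors keratin filaments, was 3.23, 2.78, 2.80 and 2.50 in the controls and 3.73, 2.89, 3.89 and 2.78 in the labelled libraries. Dsc2, a desmocollin, and Pkp2, another plakophilin, had log2 fold changes of 0.04 and 0.03, with levels between 1.41 and 2.69. Markers of stratified epithelium, in which desmosomes are most abundant, summed to at most 0.511 rescaled FPKM in any library, and Krt6a was at 0 in all 8.

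The connexins of acinar cells had lower mean levels in the labelled libraries, and Gja1 had a higher mean. Gjb1, the main acinar connexin gene, on mm9 chromosome X from 98571717 to 98580968, was 30.3, 25.1, 28.6 and 22.5 rescaled FPKM in controls 1 to 4 and 0.919, 14.5, 3.86 and 19.6 in labelled libraries 1 to 4. The highest labelled library was below the lowest control, and libraries 1 and 3 were far below 2 and 4. The mean went from 26.6 ± 3.47 to 9.72 ± 8.79 (SD, n = 4), a log2 fold change of -1.89 (SE 0.68, limma adjusted p = 0.128). Behind the labelled values stood 36.93, 210, 83.25 and 126.1 implied fragments. Gjb2, whose product joins that of Gjb1 in acinar gap junctions, was 14.9, 13.6, 11.8 and 10.6 in the controls and 4.23, 7.78, 12.8 and 7.72 in the labelled libraries. It overlapped through labelled library 3, which kept a control level of Gjb2 beside a low level of Gjb1 (log2 fold change -0.66, SE 0.28, limma adjusted p = 0.159, turning to 0.34 and 0.48 when libraries were scaled to an equal sum or to implied fragment totals). Gja1, a connexin gene of fibroblasts, smooth muscle and other cells, was 2.16, 1.602, 2.13 and 2.19 in the controls and 4.68, 2.38, 4.04 and 2.09 in the labelled libraries. Labelled library 4 lay within the control range (log2 fold change 0.47, SE 0.21, limma adjusted p = 0.176).

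The makeup of the connexins differed most in labelled libraries 1 and 3. Of the summed level of 20 connexin genes, Gjb1 made up 59.7%, 58.4%, 64.3% and 59.5% in the controls and 6.03%, 49.7%, 14.9% and 61.7% in the labelled libraries. Labelled library 4 thus had a control share of Gjb1 at a lower total. Its Gjb2 share, 24.3%, was below every control, the lowest of which was 26.5%. Gja1 went from 3.72% to 5.78% in the controls to 30.7%, 8.12%, 15.6% and 6.60%, above every control in all 4. The connexin sum was 37.8 to 50.7 in the controls and 15.2, 29.3, 25.97 and 31.7 in the labelled libraries. Without labelled libraries 1 and 3 the mean difference in the Gjb1 share was -4.8 percentage points, against -27.4 with all 4. Bhlha15, an acinar transcription factor of secretory cells, was 49.3 to 71.6 in the controls and 0.476, 36.9, 4.57 and 38.4 in the labelled libraries. All 12 fibroblast markers had a higher mean in the labelled libraries, none was at 0, and their sum was 258.9 to 315.6 in the controls and 1053, 409.5, 1397 and 433.0 in the labelled libraries. Of 7 smooth muscle markers 6 had a higher mean too, with sums of 14.4 to 19.5 and 20.4 to 36.5 and none at 0. The part of acinar, fibroblast or smooth muscle content in the connexin values was not tested.

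RefSeq gives 4 starts of Gjb1, and the window of the last is shown. It is the only one of the 40 member windows kept with a CATATG, the E-box form that the Bhlha15 protein is known to bind. Of all 32851 windows 3.91% hold a CATATG, so the member windows show no excess. A role of Bhlha15 in the Gjb1 level was not tested.
Gjb1 start 4, chrX:101383482-101383781, plus strand: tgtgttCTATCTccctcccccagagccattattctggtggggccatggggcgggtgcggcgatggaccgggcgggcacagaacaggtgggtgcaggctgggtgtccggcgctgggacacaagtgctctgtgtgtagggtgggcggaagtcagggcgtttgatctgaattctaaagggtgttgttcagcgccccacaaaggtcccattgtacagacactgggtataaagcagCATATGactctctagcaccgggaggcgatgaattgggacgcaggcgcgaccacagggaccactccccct
Capitals are as above, 1 GATA core on the opposite strand and 1 CATATG. A match is a run of letters and shows no binding.

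Among the polarity genes Ezr and Prkci lay above every control and Llgl2 below every control, and the other members overlapped. Ezr, for ezrin, which links the apical membrane to actin, was 3.62, 3.19, 3.16 and 3.13 rescaled FPKM in the controls and 10.2, 4.00, 7.24 and 6.20 in the labelled libraries. All 4 labelled libraries were higher, library 2 least (mean 3.27 ± 0.23 against 6.92 ± 2.59, SD, n = 4; log2 fold change 0.83, SE 0.23, limma adjusted p = 0.103). Prkci, the atypical protein kinase C of the Par complex, was 2.24, 2.22, 2.22 and 2.24 in the controls and 5.19, 3.82, 4.01 and 2.44 in the labelled libraries. The controls were nearly identical and labelled library 4 was only just above them (log2 fold change 0.56, SE 0.17, limma adjusted p = 0.113). Implied fragments of Prkci were 15.1, 84.6, 82.3 and 32.9 in the controls and 252, 23.0, 102 and 22.2 in the labelled libraries. The gap between labelled library 4 and the controls is thus within counting error. Llgl2, a Lethal giant larvae protein of the basolateral side that the kinase excludes from the apex, was 15.5, 20.6, 13.2 and 13.6 in the controls and 3.35, 12.1, 5.81 and 11.3 in the labelled libraries. Every labelled library was below every control (log2 fold change -0.99, SE 0.36, limma adjusted p = 0.129), but the fold change was 0.01 and 0.13 with libraries scaled to an equal sum or to implied totals.

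Other polarity members overlapped between the groups. Crb3, for the Crumbs protein of the apical membrane, was 12.2, 15.0, 10.8 and 11.7 in the controls and 3.64, 8.64, 9.63 and 14.9 in the labelled libraries, with labelled library 1 the lowest and labelled library 4 at the top of the control range (log2 fold change -0.52, SE 0.34, limma adjusted p = 0.312, but 0.47 with equal sums and 0.60 with implied totals). Pard3 and Pard6b, the scaffolds of the Par complex, had log2 fold changes of -0.04 and 0.06. Vil1, for the microvillar actin bundler villin, was below the expression minimum at 0.206, 0.102, 0.148 and 0.443 in the controls and 1.04, 0.403, 1.24 and 0.684 in the labelled libraries, with 0.0337 to 28.2 implied fragments behind each value. The locus of Vil1 overlaps that of Usp37. Overlaps with other annotated loci were also found for Ctnna1 (Lrrtm2), Ctnnb1 (Ulk4 and a further transcript), Tjp3 (Apba3), Cldn3 (Wbscr25), Cgn (Selenbp2 and others), Crb3 (Slc25a23) and Ezr (Sytl3), and with small or predicted genes for Cldn10, Marveld2, Dsp, Dsg2 and Pard3. Values of all these members may hold reads of the neighbour.

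Shares within families of related genes also differed. Prkci made up 22.2% to 34.2% of the sum of the atypical kinases Prkci and Prkcz in the controls and 75.9%, 57.8%, 61.0% and 42.5% in the labelled libraries, all higher. That sum itself was 6.55 to 10.1 and 5.75 to 6.84 rescaled FPKM. Among ezrin, radixin and moesin, which share their function and structure, Rdx made up 41.6% to 49.9% in the controls and 17.0%, 35.1%, 18.3% and 33.7% in the labelled libraries, and Msn, the form abundant in blood, endothelial and stromal cells, 29.2% to 39.1% and 60.0%, 44.6%, 60.6% and 37.1%. The share of Ezr was 19.4% to 21.0% among controls and 20.2% to 29.2% among labelled libraries, which overlapped. Of 11 myeloid markers, 11 had a higher mean in the labelled libraries, with sums of 113.6 to 179.6 and 241.4 to 932.7 and none at 0, and endothelial markers summed to 59.0 to 76.6 and 54.6 to 76.1, with 7 of 12 higher and none at 0. The part of these cells in the Msn share was not tested.

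Levels per unit of Cdh1 give a measure that does not depend on the scaling between libraries. Cdh1 itself was 23.8 and 24.7 in labelled libraries 1 and 3, against 12.5 to 14.2 in the controls, which lowers the ratios of those 2 libraries. Epcam was 0.506, 0.530, 0.521 and 0.516 of Cdh1 in the controls and 1.27, 0.741, 0.812 and 0.735 in the labelled libraries. Cldn4 was 0.0410 to 0.101 of Cdh1 in the controls and 1.20, 0.625, 2.39 and 0.135 in the labelled libraries. Cldn7 and Ezr were also above every control per unit of Cdh1. Gjb1 was 2.14, 1.89, 2.199 and 1.801 times Cdh1 in the controls and 0.0386, 1.17, 0.156 and 1.36 times in the labelled libraries. Gjb2, at 0.849 to 1.05 in the controls and 0.178, 0.624, 0.520 and 0.537 in the labelled libraries, no longer overlapped. The same held for Cldn10, at 2.07 to 2.998 and 0.0665, 1.26, 0.205 and 2.06, where labelled library 4 came close to the lowest control. Dsg2 and Llgl2 were also below every control. The catenins overlapped on this measure, Ctnnb1 at 2.85 to 3.48 and 2.45 to 4.19. Thus 4 of the 32 tested members were higher and 5 of the 32 lower without overlap relative to Cdh1. Of all genes tested 4.4% were higher and 12.3% lower, 16.7% in all, so the lower members stood near the share of all genes.

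**Figure D5:**
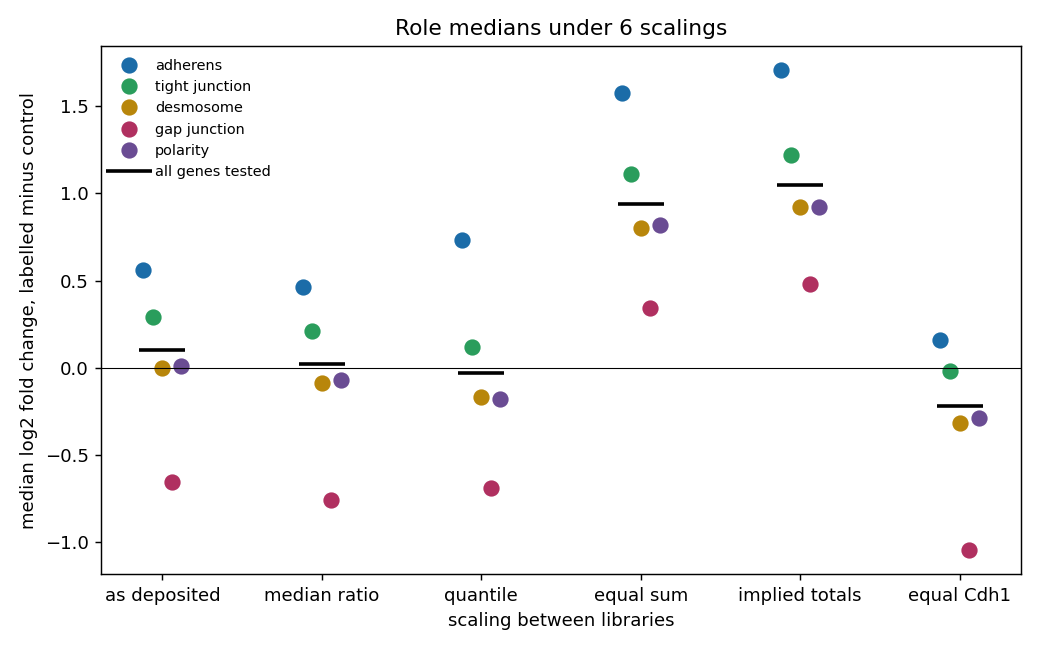
Points are the median log2 fold changes of the 5 roles under 6 scalings between libraries, and the bars the median of all genes tested. Equal-sum and implied-total scaling lift the all-gene median, 0.10 as deposited, to 0.94 and 1.05, and the role medians shift with it, since all but the quantile scaling multiply a library by 1 factor.

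Scaling between libraries moved every role median together with that of all genes. The adherens median was 0.56 with the deposited scaling, 1.58 with equal sums, 1.71 with implied totals and 0.16 with equal Cdh1, beside all-gene medians of 0.10, 0.94, 1.05 and -0.22. The gap junction median was -0.66, 0.34, 0.48 and -1.05 in the same order. These scalings multiply each library by 1 factor, so a role median and that of all genes were bound to move together. The distance between them still varied, since the pseudocount weighs more on low genes. Quantile normalization, which does not multiply by 1 factor, gave 0.73 for the adherens and -0.69 for the gap junction median beside -0.03 for all genes. Gjb1 and Cldn10 stayed negative in every alternative that was run, between -2.44 and -0.62 for Gjb1 and between -2.47 and -0.64 for Cldn10. Epcam, Cldn4 and Cldn7 stayed positive in every alternative, at 0.40 or more, 1.43 or more and 0.49 or more. Because no control lies within the labelled range of Epcam, Cldn4, Cldn7 or Gjb1, leaving out libraries could not change their sign.

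Among the BKD titles and among the pooled ASK and BSH titles the fold changes of these genes kept their sign and differed in size. Among the BKD titles (1 control, 3 labelled) the log2 fold change was 1.27 for Epcam, 3.45 for Cldn4, -2.47 for Cldn10, -2.44 for Gjb1 and -1.21 for Llgl2. Among the pooled ASK titles (3 controls) and BSH title (labelled library 2) it was 0.40, 2.14, -0.98, -0.76 and -0.33. In that pool prefix and group cannot be told apart. Labelled libraries 1 and 3 are both among the BKD titles. With the prefix, BKD or not, as a covariate Epcam had 0.84, Cldn4 2.80, Cldn10 -1.72, Gjb1 -1.60 and Llgl2 -0.77. No member passed in limma within either prefix or with the covariate (0 of 32 each). At an unadjusted p under 0.05 there were 0, 7 and 4 members, against 5.19%, 16% and 16.2% of all genes. Among the ASK and BSH titles 0.767% of all genes passed after adjustment. Each prefix holds 1 group with a single library, which is assumed to vary like the others. Without labelled libraries 1 and 3 the same 5 genes had 0.47, 1.43, -0.64, -0.62 and -0.37.

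Beyond the panel, 135 further symbols of the same structures gave 130 gene IDs, of which 58 were tested. None passed in limma (0 of 58, against 0.413% of all genes). At an unadjusted p under 0.05 there were 15 higher and 6 lower, or 36.2%. Of all genes 30.1% were, 17.9% higher and 12.2% lower. Without overlap 11 were higher and 8 lower, or 32.8%, against 18.5% of all genes, 10.9% higher and 7.62% lower. Their median log2 fold change was 0.17, against 0.10 for all genes tested. Among the tight junction genes Cldn9 came closest to the threshold. It was 1.13, 3.57, 2.37 and 3.04 rescaled FPKM in the controls and 0.0475, 0.141, 0.247 and 0.329 in the labelled libraries, lower in all 4 (log2 fold change -1.52, SE 0.26, limma adjusted p = 0.0594), with 2, 2, 10 and 4 implied fragments behind the labelled values. Cldn6 was 1.72, 1.67, 1.12 and 2.06 in the controls and 8.95, 3.92, 14.0 and 3.76 in the labelled libraries (log2 fold change 1.55, SE 0.37, limma adjusted p = 0.0930). Cldn2, a claudin that forms cation pores, was 0.120 to 0.335 in the controls and 4.74, 3.03, 1.34 and 0.508 in the labelled libraries (log2 fold change 1.31, limma adjusted p = 0.110, with at most 7.93 implied fragments behind a control value), and Cldn8 5.14 to 7.10 and 1.74 to 4.92 (log2 fold change -0.66, limma adjusted p = 0.135).

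Of the other adherens genes, Pkp4, an armadillo protein related to the plakophilins, ran from 7.12 to 9.92 among controls and from 3.78 to 5.83 among labelled libraries (log2 fold change -0.66, limma adjusted p = 0.0959). Vcl, for vinculin, which reinforces the link to actin under tension, was 0.822 to 1.05 and 1.45 to 3.47, and Arvcf, a delta-catenin relative, 0.857 to 1.39 and 1.59 to 3.96. Both were higher in all 4 labelled libraries, with log2 fold changes of 0.71 and 0.80. Of the other polarity genes, Prkcz, the second atypical kinase, was 7.85, 5.06, 6.78 and 4.31 in the controls and 1.65, 2.79, 2.56 and 3.31 in the labelled libraries (log2 fold change -0.96, SE 0.21, limma adjusted p = 0.0879). Stk11, for the kinase LKB1 that acts upstream of polarity, was 17.4 to 23.5 and 11.98 to 15.7 (log2 fold change -0.46, limma adjusted p = 0.122). Frmd4b was 1.79 to 2.32 and 3.73 to 6.85 (log2 fold change 0.96, limma adjusted p = 0.0731), and Msn 4.41 to 6.34 and 7.88 to 26.7 (log2 fold change 1.18, limma adjusted p = 0.114). Pkp4, Cldn8 and Stk11 turned positive under equal-sum and implied-total scaling, and Prkcz reached 0.03 under implied totals. Of the other desmosome genes Ppl and Perp were tested, with log2 fold changes of 0.11 and -0.30, and of the other gap junction genes only the pannexin gene Panx1 (0.50), and the groups overlapped in all 3. No connexin gene beyond the 3 members reached the expression minimum.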

How the data were processed

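Values are the gene FPKM of 8 tables, 1 per pancreas, deposited by the authors with interval bounds and a status, as Cufflinks writes them per the file headers. Cufflinks 2.0.1, TopHat2 2.0.4 with Bowtie, CASAVA 1.8 and the builds mm9 and NCBIM37 are listed in the submitters' processing notes. For the gene model release, the strand setting and the scaling, the status is the same: not given in the sources used here. FPKM was divided by 100000, 14 gene IDs on several entries were summed, and 8 genes with the status HIDATA, which Cufflinks lists at 0 for want of an estimate, in any library were left out. Testing took genes whose mean over 8 libraries reached 1 rescaled FPKM. It used log2(rescaled FPKM + 1) in limma 3.58.1 (R 4.3.3), with trend and no covariate, two-sided, and p-values were adjusted over 11860 genes at a threshold of 0.05. The fit was also run on simulated data with the same spread in both groups. That run could not test it for the wider spread of the labelled libraries. Implied fragments are the squared ratio of the FPKM to its SD, taken as the distance to the upper bound divided by 2, cover counting error only, and are no fragment counts for genes with shared reads. The pseudocount understates differences of low genes. The p-values weigh the difference between group means against the spread among these 8 samples within their groups. That spread is pooled over both groups, although the labelled libraries varied more than the controls.

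The members and lists were chosen with earlier results of these data known. All members were named; values per library were fixed for those called or without overlap and for the 2 of highest mean and the 2 of largest difference in each role, and other genes were named where called or, up to 2 each way in a role, by the largest differences without overlap. Values per library of other members, and Rdx, were added after their values were seen. Motifs were searched in RefSeq windows by symbol, and member windows on chromosome 18 were left out. The alternatives were 2 pseudocounts (0.1 and 5), 2 expression minimums, 5 scalings, 2 limma settings, title prefix, and libraries left out; the counts of members without overlap in fewer libraries were added after seeing the data.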

Additional observations from a re-analysis of the deposited data

Results flagged for a closer look

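In 6 of 68 groups of 4 values, 2 for each of the 34 members, 1 library lay apart from the other 3 by more of the group's range than Dixon's 95% critical value, which chance gives in about 1 group in 20. Ctnnd1 was 8.07 in control 3, Gja1 1.6 in control 2, Pard6b 1.84 in control 4 and Ezr 3.62 in control 1, each against 3 close controls. Ocln was 4.62 in labelled library 1, the lowest of the labelled libraries, and Cldn1 was 1.36 there, the highest. All values are rescaled FPKM.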

How the results depend on the processing

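No paired analysis was possible because the labels give no replicate numbers that groups share. Of 15 alternatives other than single-library omissions, 14 called no member in limma; sample weights called 15 members, with 32% of all genes, and the cause was not tested. Leaving out 1 library at a time gave 0 to 6 called members and 10 to 2566 called genes, the highest of each without labelled library 4. Genes called were 49, against 30 with quantile normalization, 8 with equal sums, 5 with implied totals, 24 with equal Cdh1 levels, 3794 with sample weights, 13 without labelled libraries 1 and 3, 5 with the prefix covariate, 16 with BKD and 91 with ASK and BSH titles. Role medians moved as follows. The adherens median was 1.58, 1.71 and 0.16 with equal sums, implied totals and equal Cdh1, and 0.27 with ASK and BSH titles. The tight junction median was 1.11, 1.22 and -0.02 in those 3 scalings, 0.12 with quantile normalization, 0.13 with pseudocount 5, 0.65 with a minimum of 5 (fewer genes tested) and 0.12 with ASK and BSH titles. The desmosome median was 0.80, 0.92 and -0.32 in those 3 scalings, -0.17 with quantile normalization, -0.09 with median-ratio scaling and -0.22 with a minimum of 5. The gap junction median was 0.34 and 0.48 with equal sums and implied totals and -1.28 with a minimum of 5. The polarity median was 0.82, 0.92 and -0.29 in the 3 scalings, -0.18 with quantile normalization, -0.07 with median-ratio scaling, -0.52 with a minimum of 5, -0.08 without labelled libraries 1 and 3, 0.16 with BKD titles and -0.07 with ASK and BSH titles. The shares differed by -15.2 (Cldn10), 4.4 (Cldn4) and -4.8 (Gjb1) percentage points when labelled libraries 1 and 3 were omitted. With 1 library left out the medians ran from 0.41 to 0.70 (adherens), 0.21 to 0.41 (tight junction), -0.12 to 0.03 (desmosome), -0.89 to -0.42 (gap junction) and -0.05 to 0.08 (polarity), and the shares from -31.6 to -22.2 (Cldn10), 10.9 to 20.9 (Cldn4) and -37.0 to -18.4 (Gjb1). With ASK and BSH titles only the log2 fold change turned to -0.05 for Cdh1, -0.07 for Cgn, -0.07 for Dsc2, -0.06 for Pard6b, -0.09 for Pkp2, 0.11 for Pkp3. With quantile normalization the log2 fold change turned to -0.09 for Cgn, -0.18 for Dsc2, -0.03 for Marveld2, -0.17 for Pard6b, -0.18 for Pkp2. With equal Cdh1 levels the log2 fold change turned to -0.14 for Cgn, -0.0006 for Ctnnb1, -0.24 for Dsc2, -0.17 for Dsp, -0.10 for Marveld2, -0.21 for Pard6b, -0.25 for Pkp2, -0.14 for Tjp1. Without labelled libraries 1 and 3 the log2 fold change turned to -0.08 for Cgn, -0.08 for Dsc2, 0.03 for Marveld3, -0.04 for Pard6b, 0.23 for Pkp3, -0.01 for Tjp1. With equal sums the log2 fold change turned to 0.83 for Cldn12, 0.24 for Cldn8, 0.47 for Crb3, 0.72 for Dsg2, 0.34 for Gjb2, 0.82 for Jup, 0.01 for Llgl2, 0.74 for Marveld3, 0.86 for Pard3, 0.92 for Pkp3, 0.32 for Pkp4, 0.59 for Stk11. With implied totals the log2 fold change turned to 0.96 for Cldn12, 0.34 for Cldn8, 0.60 for Crb3, 0.85 for Dsg2, 0.48 for Gjb2, 0.96 for Jup, 0.13 for Llgl2, 0.84 for Marveld3, 0.97 for Pard3, 1.06 for Pkp3, 0.44 for Pkp4, 0.03 for Prkcz, 0.73 for Stk11. With sample weights the log2 fold change turned to 0.06 for Cldn12, 0.03 for Pkp3. With median-ratio scaling the log2 fold change turned to -0.03 for Dsc2, -0.01 for Pard6b, -0.04 for Pkp2. With the prefix covariate the log2 fold change turned to -0.02 for Dsc2, 0.03 for Marveld3, 0.03 for Pard3, -0.08 for Pkp2, 0.04 for Pkp3. With BKD titles only the log2 fold change turned to 0.26 for Marveld3, 0.14 for Pard3, -0.07 for Pkp2. Single-library omissions also turned the sign of some genes near 0, with ranges of -0.09 to 0.09 for Cldn12, -0.01 to 0.08 for Dsc2, -0.09 to 0.04 for Marveld3, -0.13 to 0.04 for Pard3, -0.07 to 0.09 for Pkp2, -0.16 to 0.26 for Pkp3. Few implied fragments stood behind Cldn1, Vil1, the control values of Cldn4 and Cldn2 and the labelled values of Cldn9, so their folds are imprecise. The same limit holds for other members. Control values rested on 15.4 to 25.3 implied fragments for Cldn7, 10.5 to 18.5 for Ocln, 11.1 to 16.4 for Pkp3 and 7.31 to 16.7 for Pard3. Prkci had 15.1 in control 1 and 22.2 in labelled library 4.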
